A study of Mus musculus with 6 samples.

Results

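The transcripts of 10 nuclear receptor genes were followed in mouse liver after feeding of fractions of Boswellia serrata, a tree whose gum resin is used in traditional medicine. The genes were chosen by name as receptors that sense foreign compounds, bile acids, sterols, fatty acids or estrogen, together with their common partner Rxra and the hepatocyte regulator Hnf4a. They were represented by 18 of the 22690 probe sets of the array, and by 10 of the 12394 genes with a probe set that names a single gene. Total liver RNA of Swiss-Webster mice, an outbred stock, was measured on 6 Affymetrix arrays, with 2 arrays for each of 3 groups. The control group received a control diet (replicates 1 and 2). In the other groups 1% of the diet was fraction 1, the hexane fraction (replicates a and b), or fraction 2, the methanol fraction (replicates a and b), each fed for 21 days. The labels do not give the sex or age of the mice, the number of animals behind an array, or the makeup of either fraction. They also do not say whether the arrays of a group came from separate animals, so p-values rest on the spread between these arrays, which may be partly technical.

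Nuclear receptors are transcription factors switched by small lipophilic molecules. CAR (Nr1i3) and PXR (Nr1i2) respond to foreign compounds and drive oxidation, conjugation and export of them; FXR (Nr1h4) senses bile acids, LXR-alpha (Nr1h3) senses oxysterols and PPAR-alpha (Ppara) senses fatty acids. All of these bind DNA as a heterodimer with RXR-alpha (Rxra). SHP (Nr0b2) has no DNA-binding domain and represses other receptors, among them LRH-1 (Nr5a2), which maintains bile acid synthesis. HNF4-alpha (Hnf4a) keeps up the expression of many hepatocyte genes. Ligand binding, movement into the nucleus and phosphorylation set the activity of several of these receptors, and none of these steps was measured by the arrays.

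The median signal of an array lay between 139 and 167. Control replicate 2 had the highest ratio of 3′ to 5′ signal, a sign of RNA or labelling quality, at 3.87 for actin against 2.64 or less on the other 5 arrays, and at 1.74 for Gapdh against 1.38 or less. Scanning took place in 2 batches, the second of which held replicate 1 of control and replicate a of fraction 2, so that both fractions could also be set against control within the first batch, and fraction 2 within the second. For the labelled tissue, the summed signal of the 9 hepatocyte markers measured (among them Alb and Ttr) was 159108 to 179656 in control, 139489 to 156707 with fraction 1 and 127216 to 135340 with fraction 2. Bright genes carry that sum: the mean log2 value of the same markers was 13.92 and 13.98 in control, 13.93 and 13.80 with fraction 1, which overlap, and 13.70 and 13.56 with fraction 2. With fraction 1, 4 of the 9 had log2 fold changes above 0 (Apob, Tat, Cps1 and Pck1), and with fraction 2, 1 did (Apob). At an unadjusted p under 0.05 in the limma test described below, 2 were lower with fraction 1 and 6 with fraction 2. The shares of all tested probe sets, both directions together, were 12.4% and 6.95%. The sum of 7 stellate cell markers was 4312 to 5194 in control and 2782 to 3085 with fraction 1, and that of 10 endothelial markers was 8772 to 10759 in control and 6844 to 7319 with fraction 1. The same sums with fraction 2 were 3753 to 3816 and 8112 to 8786. Reln alone gave 2531.4 and 2963.1 of the stellate sum in control. The mean log2 value of the stellate markers was 8.44 and 8.77 in control and 8.22 and 8.19 with fraction 1. With fraction 2 it was 8.44 and 8.50, which overlaps control. For the endothelial markers it was 9.03 and 9.21 in control, 8.87 and 8.76 with fraction 1, and 9.04 and 9.005 with fraction 2. Sums of 12 Kupffer cell markers were 10352 to 11430 in control, 9250 to 9804 with fraction 1 and 9999 to 10965 with fraction 2. Their mean log2 values were 9.37 and 9.34 in control, 9.18 and 9.27 with fraction 1, and 9.27 and 9.38 with fraction 2. With fraction 1, log2 fold changes were above 0 for 2 of 7 stellate, 3 of 10 endothelial and 3 of 12 Kupffer cell markers. For fraction 2 these counts were 3, 5 and 6. Sums of 5 lymphocyte markers overlapped between all groups, and of the cholangiocyte markers Krt19 alone could be tested. No single marker of any of these cell types passed the test in any comparison. In bulk tissue fewer cells of a type and less RNA per cell cannot be told apart.

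No receptor transcript passed the test in any comparison, while 5 of 20 tested target genes of CAR and PXR rose with fraction 1 and 4 with fraction 2. Receptors and targets were chosen with earlier results of these data known. Setting these counts side by side is therefore a description and not a test. The target counts also changed with the settings, as given below. Differences were tested with limma on log2(signal + 16), with p-values adjusted by Benjamini-Hochberg over 14755 probe sets and a threshold of 0.05. Tested probe sets were those that reached the 40th percentile of their array on 2 or more arrays. This left 16 receptor probe sets of 9 genes; the only probe set of the estrogen receptor gene Esr1 and 1 of the 4 of Nr5a2 were too dim. With fraction 1, 0 of 16 passed (smallest adjusted p = 0.139), where 0.712% of all tested probe sets did. At an unadjusted p of 0.05 the count was 3 of 16, beside 12.4% of all. With fraction 2, 0 of 16 passed (smallest adjusted p = 0.533; 0.108% of all), and 1 of 16 had an unadjusted p under 0.05 (6.95% of all). Between the fractions, 0 of 16 passed (smallest adjusted p = 0.498; 0.0136% of all), and 2 of 16 did so unadjusted (8.04% of all).

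With 2 arrays a group, groups that do not overlap were common over the whole array. With fraction 1, both arrays lay above both controls for 1 of 16 receptor probe sets (18.8% of all) and below them for 3 (22.1% of all). With fraction 2 these counts were 1 above (14.8% of all) and 6 below (20.4% of all). Fraction 1 lay above fraction 2 for 1 (25.4% of all) and below it for 2 (21.4% of all). The median log2 fold change of the receptor probe sets was -0.15 with fraction 1 and -0.10 with fraction 2, beside -0.02 and -0.04 over all tested probe sets. Centring each array on its median moved the median of all probe sets with fraction 2 from -0.04 to 0.07, and that of the receptors to 0.02. Between fraction 1 and fraction 2 the receptor median was 0.04, beside 0.02 for all.

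**Figure D1:**
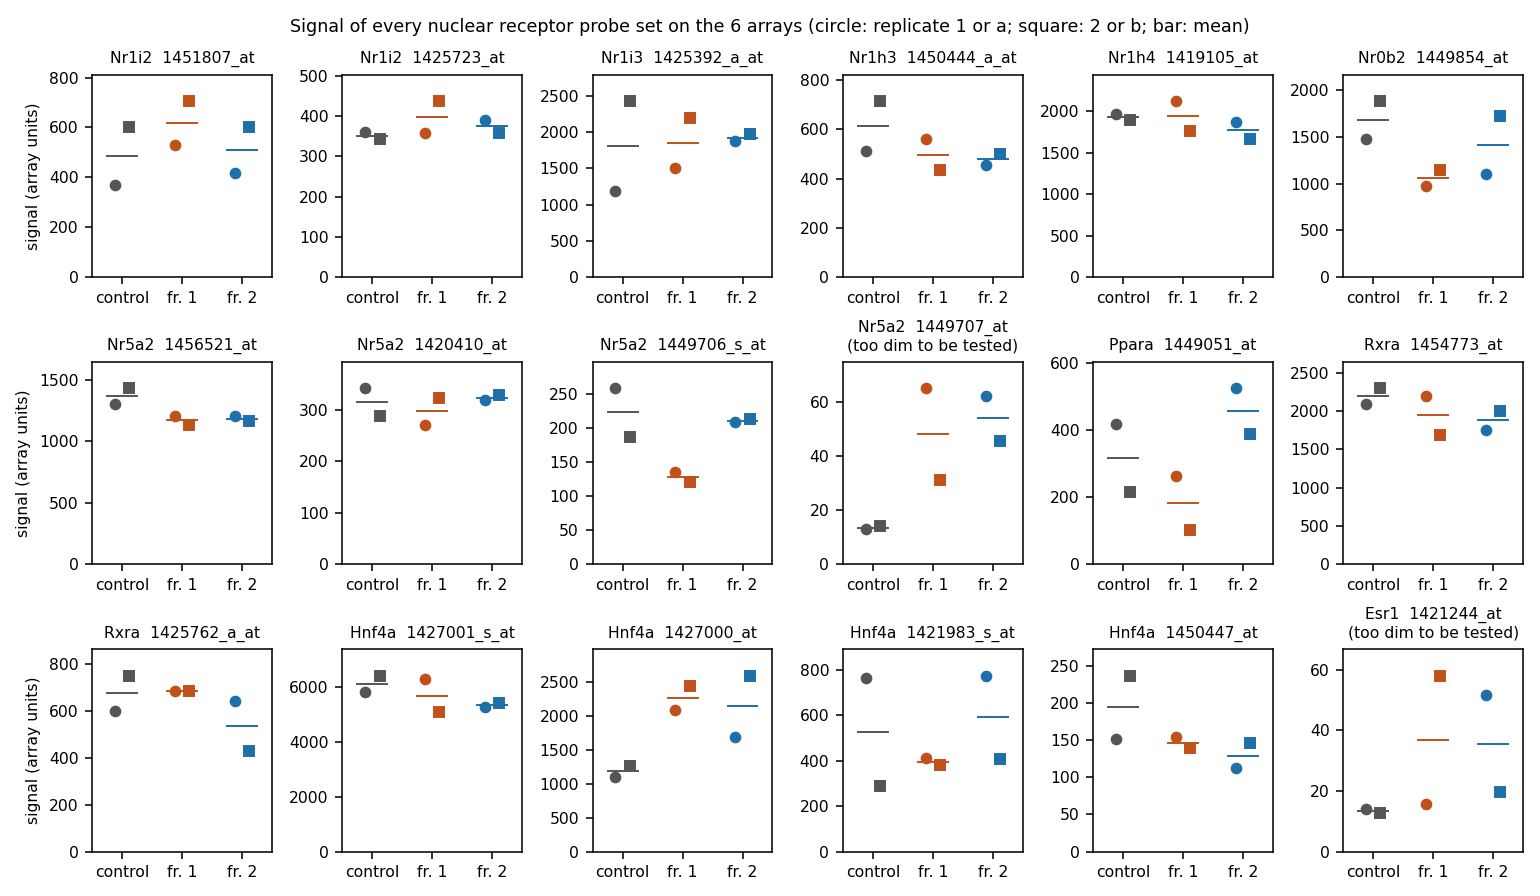
Signal (vertical axis, array units, from 0) of the 18 receptor probe sets in control, fraction 1 and fraction 2, with circles for replicate 1 or a, squares for replicate 2 or b and bars for the mean of 2 arrays. The probe set 1427000_at of Hnf4a stands above control in both fractions, while the controls differ widely from each other for Nr1i3, Ppara and the Hnf4a probe set 1421983_s_at.

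A p above the threshold does not show that a receptor was level, and the 95% intervals show how precise each estimate is. They are for single probe sets and are not adjusted for the number tested. Like the p-values and the ± values below, they rest on a moderated spread between these arrays. It combines the probe set's own spread within the 3 groups (3 degrees of freedom) with that of probe sets of similar brightness (5.43 degrees of freedom). Where a probe set varies more than those, its moderated SE is smaller than its own spread would give. The intervals reached 0.35 to 1.00 to either side of the estimate on the log2 scale, with a median of 0.54. The whole interval lay within a 2-fold change either way for 9 of 16 probe sets with fraction 1, for 12 with fraction 2 and for 13 between the fractions. It included 0 for 13, 15 and 14 of them.

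**Figure D2:**
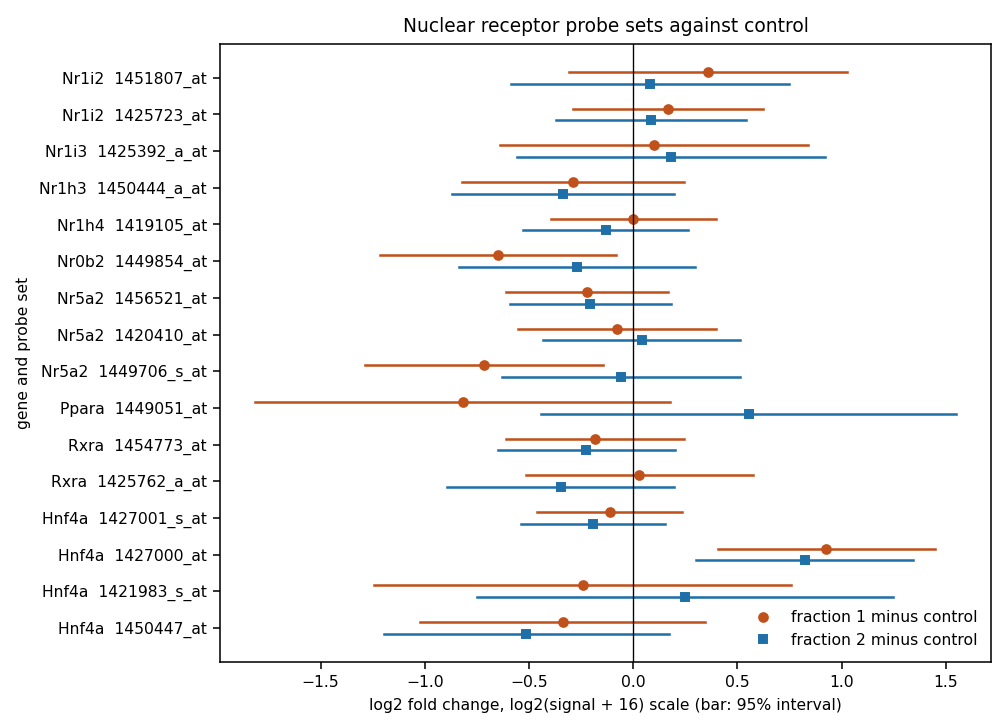
Log2 fold change (horizontal axis, log2(signal + 16) scale) of the 16 tested receptor probe sets against control, with circles for fraction 1, squares for fraction 2 and bars for the 95% interval. Both intervals of Hnf4a 1427000_at lie above 0, those of Nr0b2 and Nr5a2 1449706_s_at lie below 0 with fraction 1 only, and all the others include 0.

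Among the receptors of foreign compounds, PXR is read by 2 probe sets. Nr1i2 probe set 1451807_at had signals of 370.2 and 603.2 in control, 529.6 and 705.7 with fraction 1, and 417 and 601.7 with fraction 2. The groups overlapped, and the log2 fold change was 0.36 ± 0.29 (moderated SE, 2 arrays a group) with fraction 1 and 0.08 ± 0.29 with fraction 2. The other, 1425723_at, read 359.8 and 343.1 in control, 358.2 and 437 with fraction 1, and 389.3 and 358.7 with fraction 2, so that the groups overlapped there as well. Its log2 fold change was 0.16 with a 95% interval of -0.29 to 0.62 for fraction 1, and 0.09 with an interval of -0.37 to 0.54 for fraction 2.

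CAR, the receptor through which phenobarbital-like inducers act, is read by 1 probe set. Nr1i3 signals were 1182.1 and 2428.4 in control, 1505.5 and 2191.3 with fraction 1, and 1875.6 and 1975.7 with fraction 2. The control arrays were the lowest and the highest of the 6, a gap of 1.03 on the log2 scale, and the fraction arrays all lay between them. The log2 fold change was 0.10 ± 0.32 with fraction 1 (95% interval -0.64 to 0.84, adjusted p = 0.943) and 0.18 ± 0.32 with fraction 2 (-0.56 to 0.92, adjusted p = 0.909), and -0.08 ± 0.32 between the fractions. The sign turned with the control used: within the first scan batch, against control replicate 2, the values were -0.42 for fraction 1 and -0.30 for fraction 2, and within the second, against control replicate 1, 0.66 for fraction 2. Without control replicate 1 the values in all were -0.42 and -0.33, and without fraction 1 replicate b the value for fraction 1 was -0.17. Control replicate 2, the higher of the controls here, is the array with the high 3′ to 5′ ratios; the part of these in the spread was not tested.

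Some of the genes that CAR and PXR act on rose, on a list chosen with earlier results of these data known. Of 20 target genes tested, 5 rose with fraction 1 and 4 with fraction 2, where 0.712% and 0.108% of all tested probe sets passed. The other 15 and 16 did not pass, and none fell past the threshold. At an unadjusted p under 0.05, 14 were higher with fraction 1 and 9 with fraction 2, and none was lower. The shares of all tested probe sets, both directions together, were 12.4% and 6.95%. Median log2 fold changes were 0.76 and 0.43, beside -0.03 and -0.05 over all genes. Signals of Cyp2c55, a cytochrome P450 that foreign compounds induce in mouse liver, were 217.3 and 268.7 in control, 9465.9 and 8471.4 with fraction 1, and 6644.6 and 6039.9 with fraction 2. The gene rose 34.8-fold with fraction 1 (log2 5.12 ± 0.17, adjusted p = 1.14e-05) and 24.6-fold with fraction 2 (4.62 ± 0.17, adjusted p = 2.69e-05). Cyp2b10, the classical CAR target, had signals of 282.9 and 508.9 in control, 6082.7 and 8063.1 with fraction 1, and 2885.5 and 2712.5 with fraction 2. It rose by log2 4.15 ± 0.27 (adjusted p = 0.000554) with fraction 1 and 2.83 ± 0.27 (adjusted p = 0.00918) with fraction 2; within scan batches the values were 3.74 for fraction 1, and 2.38 and 3.28 for fraction 2. Its probe set is of a kind that can match transcripts of related genes, so other Cyp2b members may contribute.

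Slco1a4, a carrier for uptake of organic anions, rose by 2.07 ± 0.16 and 1.59 ± 0.16 on the log2 scale (adjusted p = 0.00123 and 0.00977). Ces2a, a carboxylesterase, and Aldh1a7, an aldehyde dehydrogenase, rose with fraction 1 (1.07 and 0.78, adjusted p = 0.0111 and 0.039); with fraction 2 their values were 0.78 and 0.45 (adjusted p = 0.103 and 0.533). Abcc3, which exports conjugates into blood, rose with fraction 2 (1.37, adjusted p = 0.0488), and its value with fraction 1 was 0.97 (adjusted p = 0.0644). These are the members that passed; 15 of 20 with fraction 1 and 16 of 20 with fraction 2 did not. Cyp3a11, the main PXR-driven cytochrome P450 of mouse liver, was among the latter, with signals of 13638.2 and 18290.6 in control, 18337.2 and 16945.3 with fraction 1, and 15772.3 and 15547.9 with fraction 2. Its log2 fold change was 0.16 (95% interval -0.18 to 0.49) with fraction 1 and -0.01 (-0.35 to 0.32) with fraction 2. No target passed between the fractions with limma, where 9 of 20 had an unadjusted p under 0.05, beside 8.04% of all tested probe sets. The count with fraction 1 was 3 without its replicate a and also without its replicate b, and the count with fraction 2 was 1 without its replicate a and also without its replicate b. Over 18 alternatives with other settings or an array left out, Cyp2c55 passed in all for both fractions, as did Cyp2b10 and Slco1a4 for fraction 1. With fraction 2, Cyp2b10 missed the threshold in 4 of 18 and Slco1a4 in 6, Abcc3 in 14 of 18 (highest adjusted p = 0.425, without fraction 2 replicate a), and with fraction 1 Ces2a missed it in 5 and Aldh1a7 in 12 (highest adjusted p = 0.341, without fraction 1 replicate b).

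**Figure D3:**
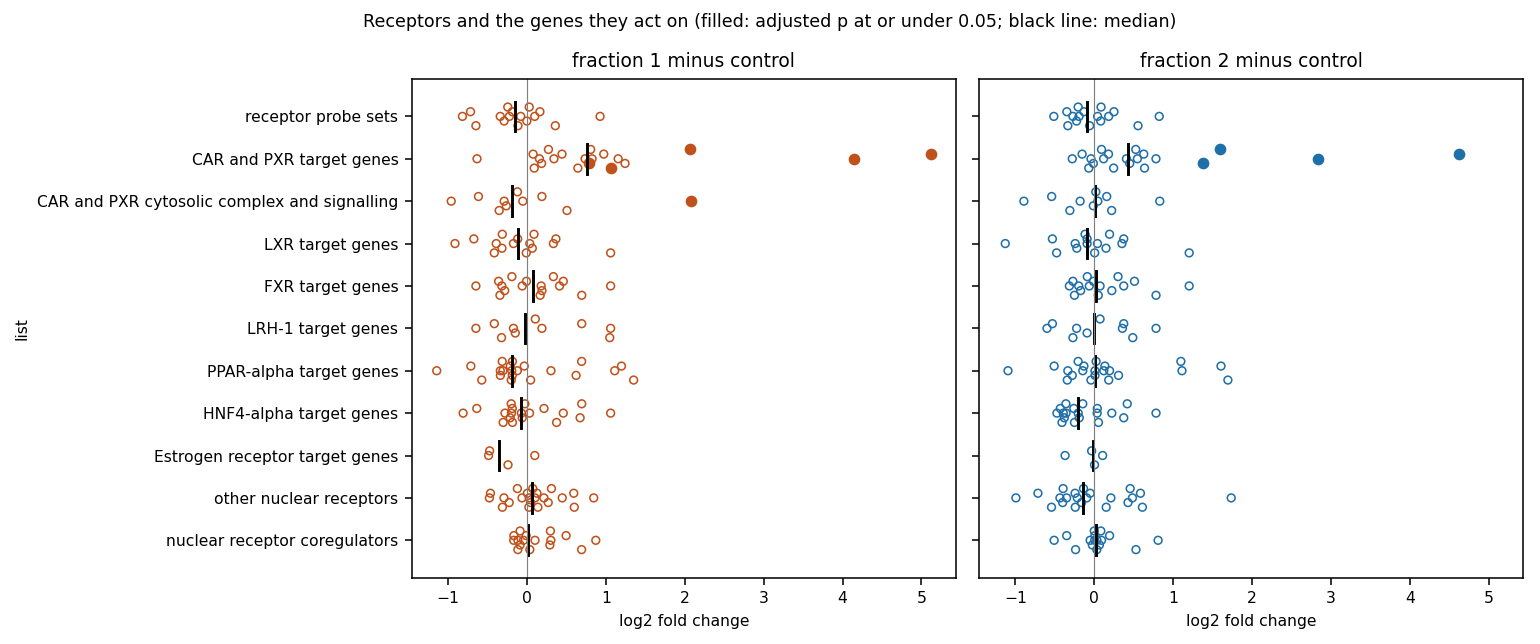
Log2 fold change against control (horizontal axes) of the 16 tested receptor probe sets and of the tested genes of 10 lists, for fraction 1 (left) and fraction 2 (right), with filled points for an adjusted p of at most 0.05 and a black line for the median. Filled points are 5 of 20 CAR and PXR targets for fraction 1 and 4 of 20 for fraction 2, and 1 of 10 genes of the CAR and PXR complex and signalling (Gadd45b) for fraction 1. The lists were chosen with earlier results of these data known.

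CAR is held in the cytosol by a protein complex and released on dephosphorylation. Of 10 tested genes of that complex and its signalling, 1 rose with fraction 1 and none fell, where 0.712% of all tested probe sets passed. At an unadjusted p under 0.05, 2 were higher and 1 lower with fraction 1, beside 12.4% of all in both directions. None passed with fraction 2 or between the fractions, where 2 and 1 had an unadjusted p under 0.05. The shares of all tested probe sets were 6.95% and 8.04% there. The gene that rose was Gadd45b, a stress-induced protein that acts as a coactivator of CAR in mouse liver. Its signals were 101.3 and 100.6 in control, 431.5 and 526.6 with fraction 1, and 223 and 164.6 with fraction 2, with a log2 fold change of 2.08 ± 0.24 (adjusted p = 0.0132) for fraction 1 and 0.83 ± 0.24 (adjusted p = 0.535) for fraction 2. The fraction 1 call was lost in 4 of 18 alternatives, among them without its replicate a (adjusted p = 0.0579) and without its replicate b (adjusted p = 0.176). Egfr, the growth factor receptor whose signalling keeps CAR inactive, had signals of 2131.9 and 2384 in control, 983.7 and 1348.3 with fraction 1, and 1234.4 and 1179.8 with fraction 2. All 4 fraction arrays lay below both controls, at log2 fold changes of -0.96 ± 0.20 (adjusted p = 0.0879) and -0.89 ± 0.20 (adjusted p = 0.356), which did not pass. The next smallest p-values belonged to Ppp2r1a, a subunit of protein phosphatase PP2A, at 0.51 (adjusted p = 0.215) with fraction 1, and to Foxa2, a liver transcription factor, at -0.54 (adjusted p = 0.772) with fraction 2. The list median was -0.19 with fraction 1 and 0.00 with fraction 2.

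RXR-alpha, the partner of these receptors, is read by 2 probe sets. Rxra probe set 1454773_at had signals of 2092.6 and 2297 in control, 2193.5 and 1693.1 with fraction 1, and 1757.7 and 1997 with fraction 2. Its fraction 2 arrays both lay below control, and its log2 fold changes were -0.18 ± 0.19 and -0.23 ± 0.19. The probe set 1425762_a_at read 600.8 and 751 in control, 686.8 and 685.1 with fraction 1, and 642.6 and 427.2 with fraction 2. Its log2 fold changes were 0.03 ± 0.24 and -0.35 ± 0.24. Both fraction 1 arrays of it lay above both of fraction 2, by 0.38 ± 0.24 (adjusted p = 0.698).

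The bile acid branch runs from FXR through SHP to LRH-1 and the synthesis enzymes. Nr1h4 gave the smallest difference of the set with fraction 1: its signals were 1971.9 and 1900.8 in control, 2123.8 and 1762.3 with fraction 1, and 1869.1 and 1669.7 with fraction 2. The log2 fold change was -0.00 (95% interval -0.40 to 0.39) with fraction 1 and -0.13 (-0.53 to 0.26) with fraction 2, where both arrays were below control.

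SHP is both a target of FXR and LRH-1 and a repressor of LRH-1. Nr0b2 signals were 1474.4 and 1883.1 in control, 975.7 and 1148.6 with fraction 1, and 1100 and 1724.9 with fraction 2. Both fraction 1 arrays were below both controls, and the fraction 2 arrays were spread across the range. The log2 fold change was -0.65 ± 0.25 with fraction 1 (95% interval -1.21 to -0.08, adjusted p = 0.33 with limma) and -0.27 ± 0.25 with fraction 2 (adjusted p = 0.828), and the difference between the fractions was -0.38 ± 0.25 (adjusted p = 0.709). Within the first scan batch the value for fraction 1 was -0.82, and for fraction 2 it was -0.13 there and -0.42 in the second. Without fraction 2 replicate a the value for fraction 2 was 0.05. The summed signal of hepatocyte markers was lower with fraction 1 than in control, while their mean log2 value overlapped; the part of either in the Nr0b2 values was not tested.

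The sequence before the Nr0b2 start site is shown because SHP is the member that both FXR and LRH-1 act on. It is the window of 250 bases before the start in RefSeq's mouse build GRCm38.p6, chr4:133553126-133553375 on the plus strand, with capitals for the first letters of the LRH-1 element, TCAAGG, searched on both strands.
Nr0b2: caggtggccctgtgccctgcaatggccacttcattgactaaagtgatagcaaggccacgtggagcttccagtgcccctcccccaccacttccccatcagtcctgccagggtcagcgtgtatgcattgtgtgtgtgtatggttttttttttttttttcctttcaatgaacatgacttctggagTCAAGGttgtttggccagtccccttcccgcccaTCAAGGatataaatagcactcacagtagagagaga
There were 2 matches, with their first bases 68 and 35 bases before the start. Among the 15 windows that the table holds for the 10 receptor genes this was the only one with TCAAGG (6.67%), and 12.5% of all 32851 windows of the same length hold it. The general receptor half-site AGGTCA is in 3 of the 15 windows (20.0%), those of Nr1h4, Nr5a2 and Rxra, and in 14.0% of all. The letters were chosen with these windows in view, no match overlaps one of another motif, and a match is not a measured binding site.

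LRH-1 is read by 4 probe sets, of which 3 were tested. Nr5a2 probe set 1456521_at had signals of 1302 and 1428.7 in control, 1203.1 and 1132.3 with fraction 1, and 1203 and 1159.5 with fraction 2. All 4 fraction arrays lay below both controls by a narrow margin, with log2 fold changes of -0.22 ± 0.17 and -0.21 ± 0.17 (adjusted p = 0.664 and 0.819). The probe set 1449706_s_at read 258.2 and 187.5 in control, 135.1 and 121.1 with fraction 1, and 208.3 and 213.1 with fraction 2. It was lowest with fraction 1, at a log2 fold change of -0.71 ± 0.25 against control (adjusted p = 0.278) and -0.66 ± 0.25 against fraction 2 (adjusted p = 0.574), and at -0.06 ± 0.25 between fraction 2 and control. The third, 1420410_at, overlapped between the groups (342.2 and 288.6 in control, 271.8 and 324.2 with fraction 1, 319.3 and 328.7 with fraction 2), at -0.08 ± 0.21 and 0.04 ± 0.21. The fourth, 1449707_at, was too dim to be tested, at 13.1 and 14 in control, 64.9 and 31.1 with fraction 1, and 62.1 and 45.5 with fraction 2, all below the 40th percentile of their arrays, which was 92.4 to 116.2. The probe sets of this gene therefore differed in pattern, and the differences between them were not tested. Probe set 1449706_s_at is of the same kind as that of Cyp2b10, which can match transcripts of related genes.

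None of the 16 FXR targets or the 10 LRH-1 targets tested passed against control with limma. With fraction 1, 5 and 4 had an unadjusted p under 0.05, beside 12.4% of all tested probe sets. With fraction 2 it was 3 each, beside 6.95% of all. The lists share Nr0b2, Cyp7a1, Cyp8b1 and Abcb11. Nr0b2, Cyp7a1 and Cyp8b1 count in both with fraction 1, and Cyp8b1 with fraction 2. Cyp7a1 is also on the LXR and HNF4-alpha lists, and Cyp8b1 on the latter. The LXR list also shares Pltp with the FXR list, and Abcg5 and Abcg8 with the LRH-1 list. Apoc2 and Slc10a1 are on both the FXR and HNF4-alpha lists. With fraction 2, Pltp had the smallest p of the FXR targets, at 1.20 (adjusted p = 0.227). The median of the FXR targets was 0.08 with fraction 1 and 0.02 with fraction 2, and that of the LRH-1 targets was -0.02 and -0.01. The FXR list holds both genes that FXR raises and genes it lowers through SHP, such as Cyp7a1 and Cyp8b1. Its median can therefore hide shifts in opposite directions. Cyp7a1, the rate-limiting enzyme of bile acid synthesis, had signals of 2001.7 and 776.9 in control, 2743.9 and 2506.8 with fraction 1, and 1775.3 and 1481.2 with fraction 2. Both fraction 1 arrays lay above both controls, at a log2 fold change of 1.06 ± 0.37 (adjusted p = 0.277), and the value with fraction 2 was 0.37 ± 0.37 (adjusted p = 0.838). Cyp8b1, which directs synthesis towards cholic acid, had signals of 3395.3 and 3967.2 in control, 6928.5 and 5109.7 with fraction 1, and 6694.5 and 5970 with fraction 2. Each fraction array was above each control, at 0.69 ± 0.18 (adjusted p = 0.151) and 0.78 ± 0.18 (adjusted p = 0.378). The bile salt export pump Abcb11, a direct FXR target, was at 0.19 (95% interval -0.17 to 0.55) and 0.07 (-0.29 to 0.43). Among the smallest p-values of these lists were also Slc27a5, a bile acid ligase, at -0.34 and -0.32, and the lipid carrier Apom at -0.60 with fraction 2 (adjusted p = 0.535).

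LXR-alpha drives lipid synthesis and sterol export. Nr1h3 signals were 513.6 and 714.2 in control, 561.6 and 432.7 with fraction 1, and 454.5 and 500.1 with fraction 2. Both fraction 2 arrays lay below both controls, and the log2 fold changes were -0.29 ± 0.23 (95% interval -0.82 to 0.24) with fraction 1 and -0.34 ± 0.23 (-0.87 to 0.20) with fraction 2. Of 15 LXR targets tested, 0 passed with limma in either fraction. An unadjusted p under 0.05 was found for 4 in each, beside 12.4% and 6.95% of all tested probe sets. Srebf1, the regulator of fatty acid synthesis, had signals of 7247.6 and 5503.7 in control, 4293.4 and 2614 with fraction 1, and 5740.4 and 4961.2 with fraction 2. Both fraction 1 arrays were below control, at -0.91 ± 0.24 (adjusted p = 0.159), and fraction 2 was at -0.24 ± 0.24 (adjusted p = 0.84). The cholesterol exporter Abca1 was at -0.12 ± 0.26 and 0.15 ± 0.26. The phospholipid transfer protein Pltp was at 1.20 (adjusted p = 0.227) with fraction 2, and the sterol transporter Abcg5 was at -0.41 and -0.53 (adjusted p = 0.326 and 0.535). The apolipoprotein Apoe was at -0.31 and -0.48 (adjusted p = 0.36 and 0.495). The list medians were -0.12 and -0.09.

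PPAR-alpha, the receptor of fatty acid oxidation, gave the widest intervals of the set along with Hnf4a probe set 1421983_s_at. Ppara signals were 418.9 and 216.4 in control, 262.7 and 100.8 with fraction 1, and 523.7 and 387.6 with fraction 2. The control arrays overlapped with both fractions, while both fraction 1 arrays were below both of fraction 2. The log2 fold change was -0.82 ± 0.44 with fraction 1 (95% interval -1.81 to 0.18) and 0.55 ± 0.44 with fraction 2 (-0.44 to 1.55). Between the fractions it was -1.37 ± 0.44 (-2.37 to -0.38, adjusted p = 0.498 with limma), and -1.16 within the first scan batch. Replicates of fraction 1 differed by 1.25 on the log2 scale, close to the size of that difference.

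None of 21 PPAR-alpha targets passed against control with limma. An unadjusted p under 0.05 was found for 8 with fraction 1 and 6 with fraction 2, in both directions. The shares of all tested probe sets were 12.4% and 6.95%. The smallest p-values belonged to Acot1, an acyl-CoA thioesterase, at 1.20 ± 0.23 and 1.10 ± 0.23 (adjusted p = 0.0699 and 0.347), and to Cd36, a fatty acid carrier, at 1.11 ± 0.28 and 1.69 ± 0.28 (adjusted p = 0.143 and 0.154). Acaa1b, a peroxisomal thiolase, was at -0.57 with fraction 1 (adjusted p = 0.114), and Vnn1, a pantetheinase, at 1.11 with fraction 2 (adjusted p = 0.378). Cyp4a14, the fatty acid hydroxylase most used as a readout of PPAR-alpha in mice, varied widely: its signals were 3586.3 and 1378.3 in control, 2298.9 and 428.8 with fraction 1, and 963.7 and 1109.1 with fraction 2. Its log2 fold changes were -1.14 ± 0.69 and -1.09 ± 0.69. The list medians were -0.19 and 0.01.

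Among the tested receptor probe sets, the one farthest from control was of Hnf4a, and its probe sets did not move together. Probe set 1427000_at had signals of 1094.9 and 1261.4 in control, 2077.2 and 2435 with fraction 1, and 1688.3 and 2588.1 with fraction 2. All 4 fraction arrays lay above both controls. The log2 fold change was 0.93 ± 0.23 with fraction 1 (1.90-fold, 95% interval 0.41 to 1.45, adjusted p = 0.139) and 0.82 ± 0.23 with fraction 2 (1.77-fold, 0.30 to 1.34, adjusted p = 0.533), so neither passed. Within scan batches it was 0.83 for fraction 1, and 1.03 and 0.62 for fraction 2. Both comparisons use the same 2 control arrays.

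In none of the other Hnf4a probe sets did all fraction arrays lie above both controls. Probe set 1427001_s_at read 5819 and 6408.5 in control, 6285.8 and 5065.6 with fraction 1, and 5251.4 and 5421.7 with fraction 2. Its log2 fold changes were -0.11 (95% interval -0.46 to 0.23) and -0.19 (-0.54 to 0.15), intervals that have no value in common with those of 1427000_at; the difference between the probe sets was not tested. Probe set 1421983_s_at read 765 and 288.4 in control, 411.1 and 381.6 with fraction 1, and 775 and 408.4 with fraction 2. Its controls lay 1.36 apart on the log2 scale, and control replicate 1 and fraction 2 replicate a, the arrays of the second scan batch, were its highest. The log2 fold changes of this probe set were -0.24 ± 0.44 and 0.25 ± 0.44. Within the first scan batch they were 0.44 for fraction 1 and 0.48 for fraction 2, and within the second 0.02 for fraction 2. Probe set 1450447_at read 150.9 and 236.6 in control, 154.1 and 139.1 with fraction 1, and 112.1 and 145.6 with fraction 2, with log2 fold changes of -0.34 ± 0.30 and -0.51 ± 0.30. Where each probe set lies along the transcript was not analysed here. Probe sets 1427001_s_at and 1421983_s_at are of the same kind as that of Cyp2b10, which can match transcripts of related genes.

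**Figure D4:**
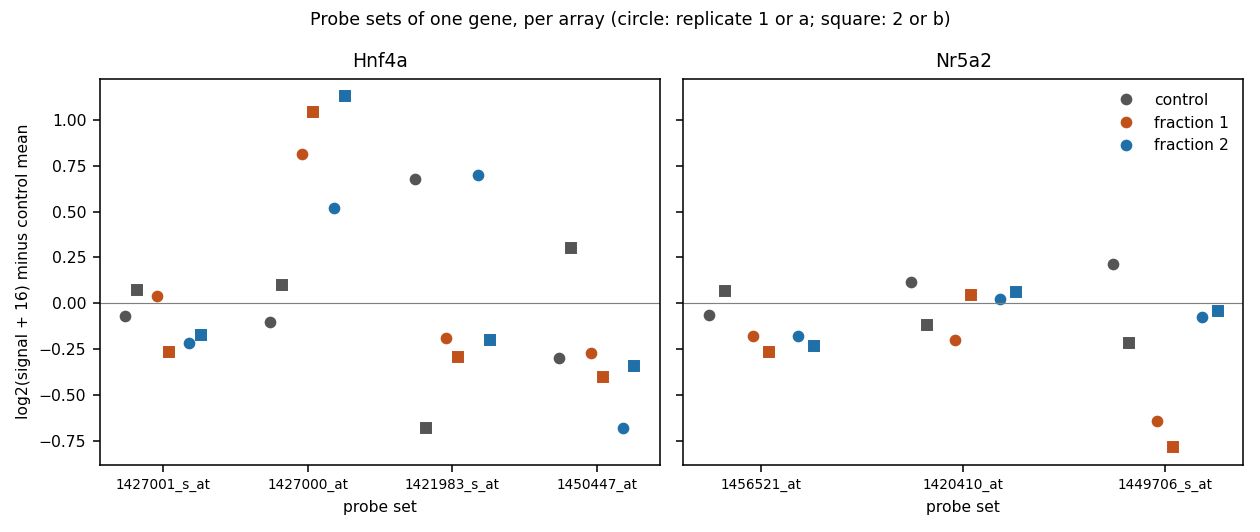
Log2(signal + 16) of each array minus the mean of the controls (vertical axis) for the 4 tested probe sets of Hnf4a and the 3 of Nr5a2, with colours for the groups, circles for replicate 1 or a and squares for 2 or b. Of the Hnf4a probe sets, 1427000_at has all 4 fraction arrays above both controls; of the Nr5a2 probe sets, 1449706_s_at has both fraction 1 arrays below all others.

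The reference table holds 2 start sites for Hnf4a. The window before the second is shown because it carries paired matches to GTTAAT, the half-site of HNF1, the hepatocyte regulator that works in a circuit with HNF4-alpha. It lies at chr2:163546905-163547154 of GRCm38.p6 on the plus strand, with capitals for the matches, which here are on the other strand.
Hnf4a: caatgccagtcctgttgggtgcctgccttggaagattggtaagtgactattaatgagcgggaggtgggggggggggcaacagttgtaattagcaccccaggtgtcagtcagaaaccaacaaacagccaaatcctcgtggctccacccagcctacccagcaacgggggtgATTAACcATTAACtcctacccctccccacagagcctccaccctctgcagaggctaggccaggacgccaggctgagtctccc
The first bases of the matches were 81 and 74 bases before the start. GTTAAT is in 3 of the 15 receptor windows (20.0%), the others being of Nr1h4 and Nr5a2, and in 6.43% of all windows. Nothing measured here says which start site was used.

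Of 19 HNF4-alpha targets tested, 0 passed against control with limma. With fraction 1, 4 were higher and 4 lower at an unadjusted p under 0.05, and with fraction 2, 1 was higher and 5 lower. Both directions together, the shares of all tested probe sets were 12.4% and 6.95%. The apolipoprotein Apoc3 had signals of 20448.4 and 23096.6 in control, 20273.7 and 17760.3 with fraction 1, and 17377 and 16520.5 with fraction 2. All fraction arrays lay below both controls, at -0.20 ± 0.12 and -0.36 ± 0.12 (adjusted p = 0.554 and 0.602). The clotting factor gene F12 was at -0.64 (adjusted p = 0.152) and the lipid transfer protein Mttp at 0.67 (adjusted p = 0.217) with fraction 1. Ttr, a thyroid hormone carrier, was at -0.47 (adjusted p = 0.347) and the gluconeogenic enzyme Fbp1 at -0.41 (adjusted p = 0.512) with fraction 2. Ttr is also a hepatocyte marker, and the list medians were -0.07 and -0.20.

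The estrogen receptor probe set was near the bottom of the signal range. Esr1 read 13.9 and 12.8 in control, 15.8 and 58.1 with fraction 1, and 51.6 and 19.6 with fraction 2, all below the 40th percentile of their arrays, and no test or fold change was made. Of its 8 listed targets 4 were tested and 0 passed with limma. With fraction 1, 1 of them had an unadjusted p under 0.05, beside 12.4% of all tested probe sets. It was the cell cycle gene Ccnd1, at -0.47 ± 0.18 (adjusted p = 0.324). The growth factor Igf1 was at -0.49 and -0.37 (adjusted p = 0.44 and 0.787), and Lifr, a cytokine receptor, at -0.24 and -0.03.

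Other nuclear receptors and their coregulators did not pass either. Of 22 further receptors tested, 0 passed against control with limma, with 3 at an unadjusted p under 0.05 for fraction 1 and 5 for fraction 2. The shares of all tested probe sets were 12.4% and 6.95%. Medians of these receptors were 0.06 and -0.15. The smallest p-values with fraction 1 belonged to the thyroid hormone receptor Thra at 0.59 ± 0.21, the clock-linked receptor Rora at -0.48 ± 0.17 and the glucocorticoid receptor Nr3c1 at -0.46 ± 0.19 (adjusted p = 0.278, 0.302 and 0.383). With fraction 2 they belonged to the retinoic acid receptor Rarg at -0.99 ± 0.23, the clock repressor Nr1d1 at 0.58 ± 0.19 and the RXR family member Rxrb at -0.71 ± 0.25 (adjusted p = 0.373, 0.602 and 0.647). Of 16 coregulators 0 passed, with 2 at an unadjusted p under 0.05 for fraction 1 and 0 for fraction 2, beside the same shares of all. Ppargc1a, a coactivator of mitochondrial and gluconeogenic genes, was at 0.69 ± 0.26 with fraction 1 (adjusted p = 0.326). Prmt1, an arginine methyltransferase, was at 0.50 ± 0.19 (adjusted p = 0.337), and the Mediator subunit Med1 at 0.87 ± 0.50 (adjusted p = 0.541). With fraction 2 the smallest p-values were those of the coactivators Ncoa1 and Ncoa3, at -0.35 and -0.51, and of Med1 at 0.81 (adjusted p = 0.774, 0.79 and 0.787).

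The genes most like 3 of the receptors across the 6 arrays were listed by Pearson's r of log2 values over 9208 other genes. For Nr1i2 they were Flvcr2 (r = 0.996), Angel1 (0.993) and Arid5a (0.992), and 172 genes exceeded 0.9. For Nr1i3 they were Donson (0.985), Metrnl (0.979) and Pcsk7 (0.978), with 82 genes over 0.9. For Nr0b2 they were Arap3 (0.994), Cenpo (0.991) and Dbp (0.988), with 98. The 6 arrays share groups, scan batches and RNA quality, and these values are given as a description only.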

How the data were processed

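Liver RNA of 6 mouse samples was hybridised to Affymetrix arrays. The authors deposited 1 table of signal intensity per probe set and array, a linear value already scaled, since a mean trimmed by 2% at either end agreed between arrays within 0.0014%. For the software, a name is not given in the sources used here. The deposited intensities were used as they are and turned here into log2(signal + 16). Detection calls were not used here.

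The array's 64 control features were dropped from its 22690 probe sets. Genes were named through the platform annotation: 20393 probe sets had 1 symbol, 691 several and 1606 none. Outside the receptors, a gene was represented by its brightest tested probe set (mean log2). Of 269 entries of the gene lists, 38 had no probe set with that single symbol.

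The 3 groups were fitted together in R 4.3.3 with limma 3.58.1 (lmFit, eBayes with a variance trend; 3 residual and 5.43 prior degrees of freedom), two-sided, and the procedure was tested on simulated data. The number of arrays limits the precision. Fold changes are on the log2(signal + 16) scale and understate changes of dim probe sets. All receptors were named; for each list, readouts fixed by name and up to 3 genes with the smallest p were named. For the genes most like a receptor, the brightest tested probe set of Nr1i2, Nr1i3 and Nr0b2 was used. Receptors and lists were chosen with earlier results of these data known. Promoter windows are RefSeq's (GRCm38.p6), and all 10 receptor genes matched. Scan batch and chip lot came from the deposited experiment files, which hold no measurement.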

Additional observations from a re-analysis of the deposited data

How the results depend on the processing

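The alternatives changed the scaling (quantile normalization, or arrays centred on their medians), the pseudocount (1 or 64) or a floor (50), the filter (none, or the 60th percentile), the variance trend, the arrays fitted (scan batch 1, the groups compared, each array left out), the block (scan batch or chip lot) and the use of a gene's mean over probe sets. Under each of these the count of receptor probe sets past the threshold was 0 in all 3 comparisons. Of 687 values for single receptor probe sets, 647 kept their direction, 40 turned and 0 passed; the smallest adjusted p was 0.0761, for Nr0b2 with fraction 1, and no value above 0.27 in size turned.

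Against control with fraction 1, Nr1h4 turned to 0.0295 with centred arrays, 0.0525 with the scan batch block, 0.11 with the chip lot block and 0.0253 in scan batch 1. Hnf4a 1421983_s_at turned to 0.32, 0.30 and 0.44 and Nr1i3 to -0.18, -0.19 and -0.42 under the last 3 of these settings. In scan batch 1, Nr5a2 1420410_at turned to 0.0388 and Rxra 1425762_a_at to -0.13. With fraction 2, Nr5a2 1449706_s_at turned to 0.0343 with quantile normalization, 0.0557 with centring and 0.17 in scan batch 1. Nr5a2 1420410_at turned to -0.0845 with the chip lot block. Nr1i2 1451807_at turned to -0.0257 with that block and to -0.0035 in scan batch 1, where Nr1i3 turned to -0.30. The mean over probe sets gave Hnf4a 0.0582 and 0.0911. The causes were not tested.

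Leaving out 1 array gave these ranges with fraction 1 for values that turned: Nr1h4 -0.13 to 0.13, Nr5a2 1420410_at -0.20 to 0.0425, Hnf4a 1421983_s_at -0.92 to 0.44, Nr1i3 -0.42 to 0.61, Rxra 1425762_a_at -0.13 to 0.19, Rxra 1454773_at -0.37 to 7e-04, Hnf4a 1427001_s_at -0.27 to 0.0416. With fraction 2 they were Nr1i3 -0.33 to 0.70, Nr5a2 1449706_s_at -0.27 to 0.16, Nr1i2 1451807_at -0.26 to 0.42, Nr5a2 1420410_at -0.0754 to 0.16, Hnf4a 1421983_s_at -0.43 to 0.93 and Nr0b2 -0.59 to 0.0493. Between the fractions Nr1i3 ranged from -0.35 to 0.19. Wide ranges without a turn were Ppara -1.44 to -0.19, Nr1h3 -0.52 to -0.057, Hnf4a 1450447_at -0.64 to -0.0392 and Nr1i2 1451807_at 0.0192 to 0.70 with fraction 1, and Ppara -1.9985 to -0.74 between the fractions. A group left with 1 array was assumed to vary like the others.

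The CAR and PXR targets and the other gene that passed were put under the alternatives after the data were seen. Counts of targets were 5 with fraction 1, 3 with no filter and 3 with no variance trend, 3 to 4 without an array, 6 with the floor and 7 with either block. With fraction 2 they were 4, then 1 with no variance trend, 2 with the chip lot block, 1 in scan batch 1, 2 with the groups compared alone, and 1 to 3 without an array. All calls over the array fell from 105 to 12 (fraction 1) and from 16 to 2 (fraction 2) without the variance trend, and to 27 and 10 with no filter. Leaving out an array moved them too: with fraction 1 they were 14 without its replicate b and 149 without control replicate 1, and with fraction 2 they were 3 without either of its replicates and 28 without control replicate 1. The deviations of replicate a of fraction 1 and of fraction 2 had a correlation of 0.03. That is a single pair of arrays and cannot show whether the letters a and b pair them. Both b replicates share a chip lot, and the a replicates do not. With the letters as a replicate block between the fractions, 0 receptor probe sets passed and the median was 0.04.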
